A study of Mus musculus with 2 samples.

Results

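The genes described here are 9 enzymes of the endoplasmic reticulum that desaturate or elongate fatty acids (FA), the desaturases Fads1, Fads2, Fads3 and Scd2 and the elongases Elovl1, Elovl2, Elovl3, Elovl5 and Elovl7. They were taken by symbol from the deposited comparison of PPARβ-null (KO) with wild-type (WT) liver, in which all 9 had 1 locus each, among 33224 gene symbols and 38016 loci. Hepatic RNA from male C57BL/6 mice, labelled as 4 months old, was sequenced as 1 library of WT and 1 library of KO liver. The livers were regenerating, 48 hr after partial hepatectomy (PH), a time that the sample labels do not carry. The KO mice lack PPARβ, the nuclear receptor encoded by Ppard, and the sources used here do not state whether a library came from 1 mouse or from a pool. Ppard itself had an FPKM of 2.67 in WT against 2.42 in KO, a ratio of 0.906 whose 95% counting interval ran from 0.792 to 1.04, so the level of the whole locus did not separate the genotypes. The comparison asks how expression of these genes differed between regenerating WT and KO livers. With 1 library per genotype there was no replicate, no test between the genotypes was possible and the spread between mice is unknown.

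Desaturases place a double bond in an acyl chain, and elongases catalyse the condensation that starts each round of chain lengthening. Fads2 and Fads1 alternate with Elovl5 and Elovl2 in the pathway that turns the essential dietary FA, linoleic and alpha-linolenic acid, into arachidonic acid and the long omega-3 FA, and the liver is a main site of this synthesis. Scd2 makes oleic and palmitoleic acid, while Elovl1, Elovl3 and Elovl7 act mainly on saturated and monounsaturated chains.

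All 4 desaturases had lower mRNA levels in the KO library, 2.06-fold to 3.54-fold, whereas the elongases were split. Elovl3 was 5.22-fold higher in KO, Elovl1 was 1.66-fold lower, and Elovl2 and Elovl5, the elongases of polyunsaturated FA, differed by 1.10-fold or less. Elovl7 was barely detected in either library. In all, 5 of the 9 genes were lower and 1 was higher in KO by more than 1.5-fold, and 3 lay within that range. The levels are given in FPKM, fragments scaled by the length of the exon model and by the mapped fragments of the library. Among 11723 genes whose FPKM averaged at least 1 over both libraries, which include the members other than Elovl7, 19.9% were lower and 4.20% higher in KO by more than 1.5-fold. More than 2-fold, 4 members were lower and 1 was higher, against 8.69% and 1.77% of those genes. The median log2 KO/WT with a pseudocount of 0.1 FPKM was -0.73 over the 9 members and -0.24 over the 11723 genes. Relative to this general shift Elovl2 stood 0.24 and Elovl5 0.38 higher on the log2 scale, and Fads1 0.85 and Fads2 0.81 lower.

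**Figure D1:**
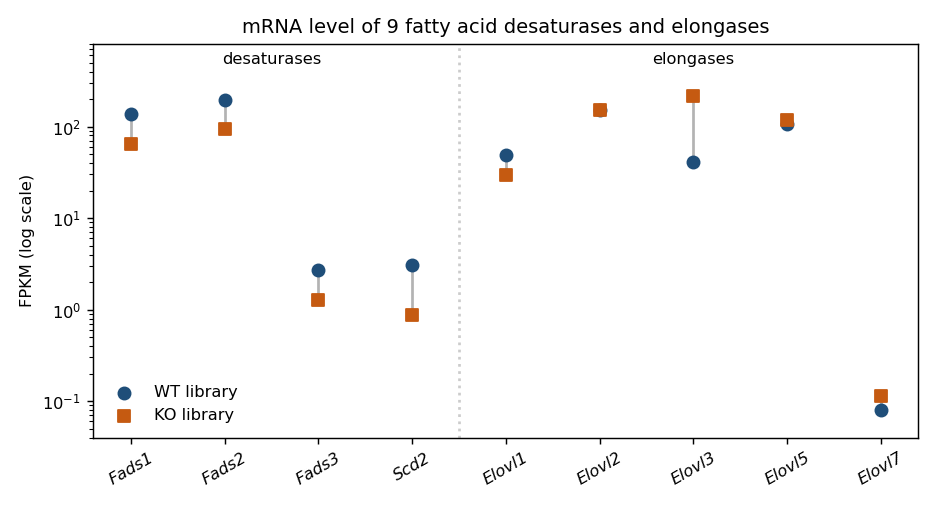
FPKM (log axis) of each gene in the WT library (circles) and the KO library (squares), 1 library each and so without error bars. The KO value lies below the WT value for the 4 desaturases and Elovl1, above it for Elovl3, and nearly on it for Elovl2.

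Upstream sequences are shown for 4 members that differ in this comparison, Fads2 and Fads3 with 48.5% and 47.7% of their WT level in KO, and Elovl2 and Elovl5 with similar levels in both libraries. Each is the 250 bases before the gene's start, 5′ to 3′ on the gene's strand, from RefSeq promoter windows on GRCm38.p6. The coordinates are those of the identical bases on NCBIM37 (mm9), the build of the deposited loci. Capitals mark GGGCGG (a GC box), CCAAT (the box bound by NF-Y) and CACGTG (an E-box), on either strand. They are Fads2 (chr19:10175994-10176243, minus strand), Fads3 (chr19:10115788-10116037, plus strand), Elovl2 (chr13:41315773-41316022, minus strand) and Elovl5 (chr9:77764922-77765171, plus strand). The Fads2 stretch lies within the deposited Fads2 locus, which starts further upstream than the RefSeq gene.
Fads2: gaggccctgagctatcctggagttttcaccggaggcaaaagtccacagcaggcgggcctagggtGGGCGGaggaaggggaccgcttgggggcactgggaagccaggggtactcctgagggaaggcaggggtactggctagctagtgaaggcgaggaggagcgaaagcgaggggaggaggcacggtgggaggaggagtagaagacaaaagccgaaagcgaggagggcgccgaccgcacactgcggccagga
Fads3: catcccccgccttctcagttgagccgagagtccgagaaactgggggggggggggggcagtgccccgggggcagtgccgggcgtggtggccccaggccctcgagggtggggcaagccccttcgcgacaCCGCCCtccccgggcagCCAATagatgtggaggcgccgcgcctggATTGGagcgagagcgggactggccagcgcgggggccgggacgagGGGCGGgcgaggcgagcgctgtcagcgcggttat
Elovl2: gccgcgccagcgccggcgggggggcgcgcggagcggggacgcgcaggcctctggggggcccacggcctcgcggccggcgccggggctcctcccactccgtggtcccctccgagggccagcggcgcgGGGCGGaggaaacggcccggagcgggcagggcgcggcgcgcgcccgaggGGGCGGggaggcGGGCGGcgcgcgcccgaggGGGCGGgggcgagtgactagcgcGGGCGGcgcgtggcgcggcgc
Elovl5: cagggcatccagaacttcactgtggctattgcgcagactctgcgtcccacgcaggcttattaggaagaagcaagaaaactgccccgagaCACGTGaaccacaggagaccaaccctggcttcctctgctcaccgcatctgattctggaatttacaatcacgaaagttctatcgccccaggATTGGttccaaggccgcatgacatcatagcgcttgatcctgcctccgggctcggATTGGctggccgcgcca

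The table of promoters, whose windows span 250 bases before and 50 bases after a start, held 8 windows of 6 members. Fads1, Scd2 and Elovl3 had none there. In the Fads2 window a single GGGCGG began 186 bases upstream, and no CCAAT was found. The Fads3 window held CCAAT 106 and, on the opposite strand, 78 bases upstream, besides GGGCGG at 123 and 34 bases. The Elovl2 window shown held 5 copies of GGGCGG, from 124 to 21 bases upstream, and that of Elovl5 held CCAAT, on the opposite strand, 71 and 17 bases upstream and CACGTG 161 bases upstream. Across all 32851 windows of the table GGGCGG occurred in 35.7%, CCAAT in 37.4% and CACGTG in 7.15%. The core of the sterol regulatory element, searched as CACCCCAC on both strands, was found among the members in the Elovl7 window alone, 123 bases upstream, and in 2.87% of all windows. A direct repeat of TGACCT spaced by 1 base, the form of a PPAR response element, was found in 0.0396% of all windows and in none of the members' windows. In the Elovl1 window that starts at the gene's first base, 1 GGGCGG on the opposite strand overlapped CCAAT by 2 bases. These matches describe the letters of the windows and are not evidence that a factor binds there.

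Fads1 and Fads2 were the most abundant of the 4 desaturases. They lie close together on chromosome 19 with Fads3, the annotated genes spanning 10257378 to 10271360 (plus strand) for Fads1, 10138654 to 10175993 (minus strand) for Fads2 and 10116038 to 10134161 (plus strand) for Fads3 in GENCODE vM1 on NCBIM37. Each has 12 exons in its longest annotated transcript. Fads1, which converts dihomo-gamma-linolenic acid to arachidonic acid, had an FPKM of 137 in WT against 64.4 in KO. Its KO/WT ratio was 0.470, with a 95% interval from 0.460 to 0.480. This interval is an exact binomial (Clopper-Pearson) one on estimated fragments, about 24798 in WT against 12239 in KO, and like all intervals given here it covers counting error between these libraries only.

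Fads2, which takes the entry step of the same pathway, had the highest level of the 9 genes in WT, with an FPKM of 194, and an FPKM of 94.0 in KO. The ratio was 0.485 (95% interval 0.472 to 0.498). The deposited Fads2 locus, 10137571 to 10176268, reaches beyond the annotated gene on both sides, so its number of fragments, estimated from an annotated transcript of 1508 nt, may be too low. Fads3, known for placing a double bond in sphingoid bases, was much less abundant than its neighbours, with an FPKM of 2.68 in WT against 1.28 in KO. Its ratio of 0.477 (95% interval 0.406 to 0.560) was nearly that of Fads1 and Fads2. The 3 genes of the cluster thus stood at 47.0% to 48.5% of their WT level in KO although their levels differed widely. No 100-base window of the annotated Fads transcripts occurred in another of the 3, also with up to 2 mismatches allowed, so reads of that length from their annotated exons were distinct. Past Fads1 lie Fen1, a replication nuclease gene with an FPKM of 7.12 in WT against 0.845 in KO, and 1810006K21Rik, with 51.7 against 44.3, in a span that does not overlap the Fads1 locus.

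Scd2, a stearoyl-CoA desaturase isoform best known from brain and newborn tissues (chromosome 19, 44368166 to 44381354, plus strand, 6 exons, with 61 bases overlapped by another annotated gene), had an FPKM of 3.10 in WT against 0.877 in KO. The KO/WT ratio was 0.282 (95% interval 0.245 to 0.325), the lowest of the 9. This value is uncertain, because Scd2 shares sequence with the far more abundant Scd1. The FPKM of Scd1 was 628 in WT against 210 in KO, a ratio of 0.335, and that of Scd3 was 6.20 and 1.76, a ratio of 0.284. Of 5354 windows of 100 bases along the Scd2 transcript, 48 were identical to a stretch of Scd1 and 257 matched it with up to 2 mismatches. At its level in these libraries, Scd1 would give about 1578 fragments in WT against 555 in KO over a length of 48 bases of start positions. Scd2 as a whole rested on about 886 fragments in WT against 263 in KO. How reads that match several genes were divided is not stated in the sources used here, and the part of Scd1 reads in the Scd2 value was not tested.

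**Figure D2:**
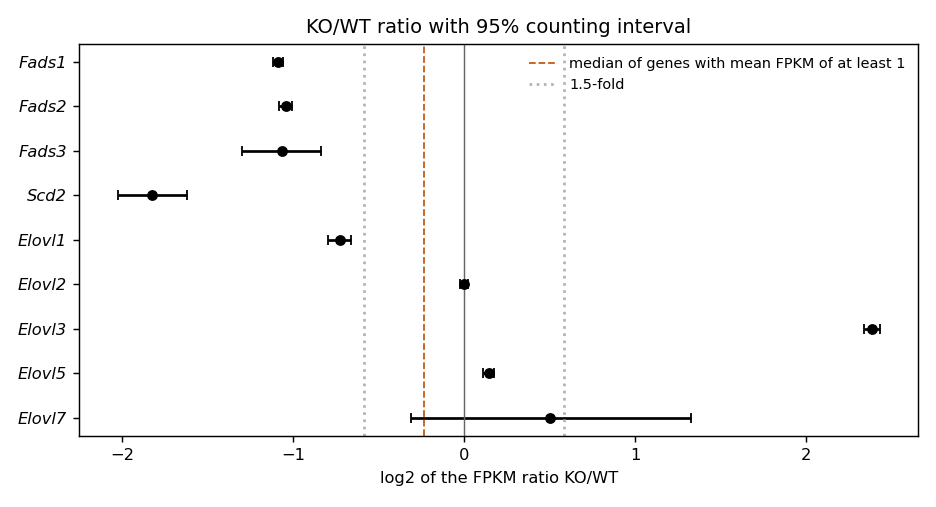
KO/WT ratio of FPKM on a log2 axis (points) with its exact 95% counting interval (bars), which does not include differences between mice. Dotted lines mark 1.5-fold and the dashed line the median of the 11723 genes, at -0.24. The points of Fads1, Fads2 and Fads3 lie close together, Elovl3 lies far to the right, and the interval of Elovl7 spans 0.

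Among the elongases, those of polyunsaturated FA had similar levels in the 2 libraries. Elovl2 (chromosome 13, 41277864 to 41315774, minus strand, 8 exons), needed for the chains that precede docosahexaenoic acid (DHA), had an FPKM of 151.4 in WT against 151.5 in KO. The ratio was 1.001, with a 95% interval from 0.985 to 1.02. Elovl5 (chromosome 9, 77765171 to 77832326, plus strand, 8 exons), which lengthens the products of Fads2, had an FPKM of 108 in WT against 119 in KO, a ratio of 1.10 (95% interval 1.08 to 1.13). About 15733 fragments in WT underlie this interval by the longest of 4 annotated transcripts and 3741 by their median length, with which it would be wider. Because ratios between genes of the same library do not depend on how the libraries were scaled, they show the contrast directly. The FPKM of Fads2 was 1.79 times that of Elovl5 in WT and 0.788 times in KO, and the FPKM of Fads1 was 1.27 times and 0.540 times that of Elovl5. Against Elovl2, Fads2 stood at 1.28 times in WT and 0.620 times in KO. In contrast, Fads1 stood at 0.707 of Fads2 in WT and at 0.686 in KO, and Elovl5 at 0.713 and 0.787 of Elovl2. Among these pairs, Fads1 or Fads2 to these elongases differed more between the libraries than Fads1 to Fads2 or Elovl5 to Elovl2. Elovl1, lower in KO with a KO/WT ratio of 0.604, was not paired with the desaturases.

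Elovl3 (chromosome 19, 46206387 to 46210184, plus strand, 4 exons) lengthens saturated and monounsaturated FA and is known in mouse liver for higher expression in males and for a daily rhythm. It had an FPKM of 41.5 in WT against 217 in KO, from about 4088 and 22409 fragments. The KO/WT ratio was 5.22 (95% interval 5.05 to 5.40), and the gene went from the sixth place of the 9 in WT to the first in KO. Against Elovl2 it stood at 0.274 times in WT and 1.43 times in KO, and against Elovl1 at 0.844 and 7.30 times, wider differences than those of the desaturases to Elovl5 or Elovl2. Relative to the general shift the log2 KO/WT was 2.62. Its deposited locus spans 46206387 to 46222815, as does that of Pitx3 on the opposite strand, and the annotated genes overlap by 10 bases at their 3′ ends. Pitx3, a homeobox gene, had an FPKM of 0.167 in WT against 0.865 in KO, a ratio of 5.18 (95% interval 2.90 to 10.95) from about 12.5 and 67.9 fragments. The library kit does not mark strand, and the part of Pitx3 and Elovl3 reads in the value of the other gene was not tested.

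Elovl1 (chromosome 4, 118100698 to 118105558, plus strand, 8 exons in its longest transcript) makes the very long chains of sphingolipids. It had an FPKM of 49.2 in WT against 29.7 in KO, a ratio of 0.604 (95% interval 0.576 to 0.632). It is the member nearest outside the 1.5-fold line, and it came within 1.5-fold when KO values were centred on the median of genes. The span of its deposited locus, up to 118109957, also holds Cdc20, a mitotic gene on the opposite strand whose annotated 3′ end overlaps that of Elovl1 by 53 bases. The FPKM of Cdc20 was 33.6 in WT against 0.161 in KO, about 3158 and 15.9 fragments, beside 4665 and 2956 for Elovl1 by the length of its longest transcript. With the median length of its 7 annotated transcripts the WT estimate for Elovl1 was 2929. The estimate for Cdc20 uses its longest transcript, so it is not on the same basis as this value. The part of Cdc20 reads in the Elovl1 value was not tested. Elovl7 (chromosome 13, 109004598 to 109077299, plus strand, 8 exons), an elongase of saturated long chains, had an FPKM of 0.0793 in WT against 0.112 in KO, about 22.6 and 33.6 fragments. The ratio of 1.42 had a 95% interval from 0.805 to 2.50, so a difference was not detectable at this depth.

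The summed level of the 9 genes was nearly the same in both libraries, with an FPKM of 687 in WT against 678 in KO, but its make-up differed. The desaturases made up 49.0% of the sum in WT and 23.7% in KO, as their summed FPKM was 337 in WT against 161 in KO, 2.10-fold lower. The elongases together had 350 in WT against 517 in KO, and without Elovl3 the other 4 had 309 and 301. Elovl3 alone was 6.04% of the sum in WT and 32.0% in KO. The share of Fads2 was 28.2% in WT and 13.9% in KO, and that of Fads1 19.95% and 9.50%. Elovl2 had a share of 22.0% and 22.4%.

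**Figure D3:**
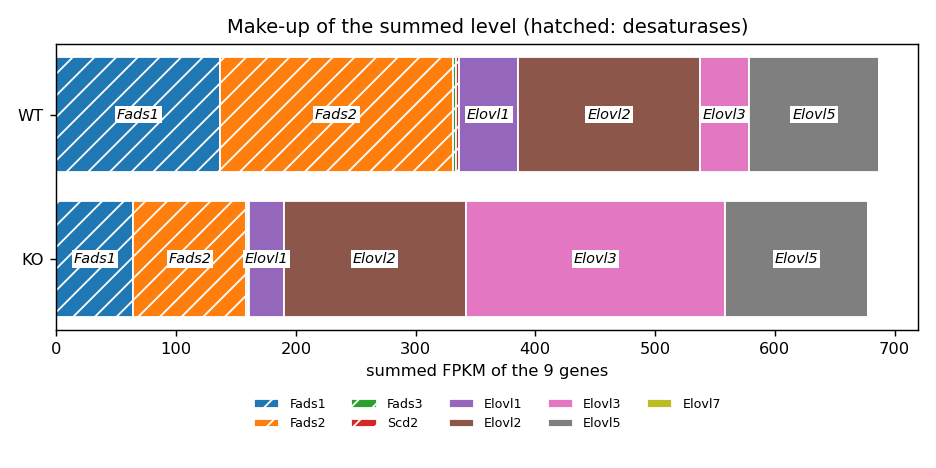
Summed FPKM of the 9 genes in the WT and KO libraries, 1 bar per library, divided by gene, with desaturases hatched. The bars end at 687 and 678, and the hatched part shrinks from 337 to 161 while the Elovl3 part grows from 41.5 to 217.

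The order of levels in WT was Fads2, Elovl2, Fads1, Elovl5, Elovl1, Elovl3, Scd2, Fads3 and Elovl7. In KO it was Elovl3, Elovl2, Elovl5, Fads2, Fads1, Elovl1, Fads3, Scd2 and Elovl7. The nearest neighbours were Elovl2 and Fads1 in WT, with a ratio of 1.10 (95% interval 1.09 to 1.12), and the least certain step was that from Scd2 to Fads3 in WT, with a ratio of 1.16 (95% interval 1.03 to 1.298). In KO the smallest steps were from Elovl5 to Fads2 and from Elovl2 to Elovl5, both with a ratio of 1.27. Each step between neighbours was larger than counting error by the longest annotated transcripts, and whether it exceeds the spread between mice was not measured. By the median transcript length Fads3 had 356.5 in place of 458.5 estimated fragments in WT, with which its interval to Scd2 would be wider. The part of Scd1 reads in the steps to and from Scd2 was not tested.

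Other genes of FA desaturation and elongation were read from lists, with genes of a mean FPKM of at least 0.1. Of all 15727 genes above that level, 26.0% were lower and 6.05% higher in KO by more than 1.5-fold, and the median log2 KO/WT was -0.25. These shares are the background for the list counts below at this level and at the deposited scaling. After centring on the median of genes, or under another scaling, the share of all genes was not counted. Among the other desaturases and elongases, 7 of 8 passed the level and all 7 were lower by more than 1.5-fold, with a median log2 KO/WT of -0.98. Besides Scd1 and Scd3 they were Elovl6, Fads6, Degs1 and 2 genes of low level. These were Scd4 (an FPKM of 0.280 in WT against 0.0926 in KO) and Degs2 (0.192 and 0.0801). The part of Scd1 reads in the values of Scd3 and Scd4 was not tested. Elovl6, which lengthens palmitic acid, had an FPKM of 23.5 in WT against 7.14 in KO, 3.29-fold lower. Degs1, the desaturase that forms ceramide, had 42.4 and 27.9. After centring on the median of genes 5 of the 7 stayed past 1.5-fold, and Degs1 and Fads6 came within it. The value of Fads6, 42.6 in WT against 26.3 in KO, belongs to a joint locus with Fdxr. Elovl4, an FPKM of 0.00691 in WT against 0.0136 in KO, lay below the level.

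Desaturases take electrons from cytochrome b5 and its reductases. Of these genes, 3 of the 5 that passed the level were lower by more than 1.5-fold, namely Cyb5b (1.89-fold), Cyb5r1 (2.17-fold) and Cyb5r3 (1.66-fold), and none was higher. After centring 2 were, as Cyb5r3 came within 1.5-fold. Cyb5, the most abundant, had an FPKM of 974 in WT against 810 in KO. The enzymes that complete each elongation round with the elongases differed less. Of 6 genes 1 was lower by more than 1.5-fold, the low Ptplad2 (an FPKM of 0.432 in WT against 0.132 in KO), and none was higher. Tecr, the reductase of the last step, had an FPKM of 113 in WT against 101 in KO, and Hsd17b12, the ketoacyl reductase, had 92.9 and 81.7. The median log2 KO/WT of this list was -0.17, which turned to 0.062 after centring, when 1 gene was also higher by more than 1.5-fold.

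**Figure D4:**
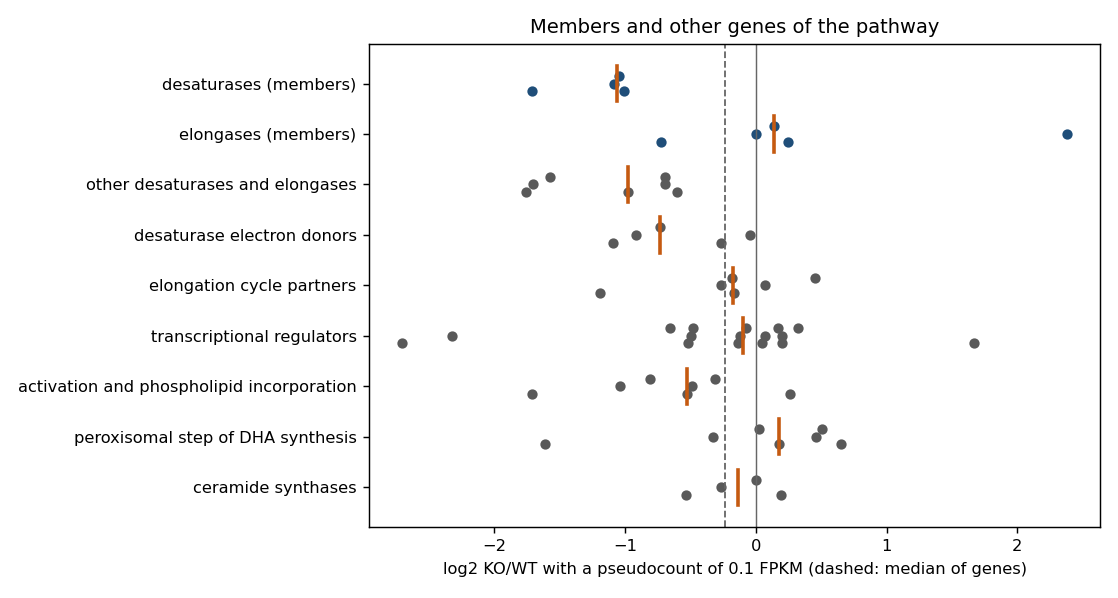
log2 KO/WT with a pseudocount of 0.1 FPKM for each gene (points) of the members and of 7 lists of other genes of the pathway, with the median of each group as a vertical bar and the median of all genes as a dashed line. The member desaturases and the other desaturases and elongases lie to the left of the dashed line, and the partners of elongation scatter around it.

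Of 16 genes that regulate the transcription of these enzymes, 3 were lower and 1 was higher by more than 1.5-fold. These counts were close to or below the shares of all genes, 26.0% lower and 6.05% higher. Insig1 and Insig2 encode proteins that hold SREBP precursors in the endoplasmic reticulum, and they went opposite ways. Insig1 had an FPKM of 205 in WT against 31.3 in KO, 6.53-fold lower, while Insig2 had 116 and 368, 3.17-fold higher. Srebf1, which encodes the SREBP that acts on FA genes, had an FPKM of 46.6 in WT against 9.21 in KO, 5.06-fold lower. Also lower was Mlxipl, the carbohydrate-responsive factor ChREBP, with an FPKM of 58.0 in WT against 36.7 in KO. The remaining 12 lay within 1.5-fold, among them Hnf4a (172 in WT against 193 in KO), Ppara (24.4 and 25.2) and Nr1h3 (47.7 and 54.6, in a joint locus with Madd and Gm13783). The median log2 KO/WT of the list was -0.10, and it turned to 0.14 after centring, when 2 genes were lower and Mlxipl came within 1.5-fold.

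Genes that act after the members were also read. Of 7 genes for activation and incorporation of polyunsaturated FA into phospholipids, 4 were lower by more than 1.5-fold and none higher. Acsl4, the acyl-CoA synthetase that prefers arachidonic acid, had an FPKM of 39.5 in WT against 19.2 in KO, and Lpcat3, which places it in phospholipids, had 41.0 and 23.3. Acsl3, in a joint locus with Utp14b, had 15.6 and 4.68, and the fourth gene was the low Lpcat2. After centring 2 of these genes, Acsl3 and Acsl4, were still lower by more than 1.5-fold. The most abundant was Agpat3, with 94.4 in WT against 113 in KO. For the peroxisomal step that ends DHA synthesis, 5 of 7 genes were within 1.5-fold, Abcd2 was 3.35-fold lower and Acaa1a 1.57-fold higher. This count depended on the scaling, since after centring 3 genes, with Scp2 and Hsd17b4, were higher. Scp2, the thiolase and carrier protein that was the most abundant of them, had 1000 in WT and 1375 in KO. None of 4 ceramide synthases passed 1.5-fold. Lass2, which uses the chains made by Elovl1, had 173 in WT against 144 in KO, and Lass6 had 5.46 and 6.26. The median of the ceramide synthases, -0.13, turned to 0.084 after centring.

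Because Elovl3 is known for sex-biased and rhythmic expression, lists of such genes were read beside it. Both libraries are labelled as male. Of 8 male-biased liver genes, Cyp4a12a was 2.53-fold higher in KO, Mup20 (8.70-fold) and Susd4 (1.67-fold) were lower, and 5 lay within 1.5-fold, among them Cyp2d9 with an FPKM of 378 in WT against 542 in KO. Their median log2 KO/WT was -0.20 and turned to 0.036 after centring, when Cyp2d9 also was higher and Susd4 came within 1.5-fold. Of 5 female-biased genes that passed the level, 3 were lower, Cyp2a4 (1.90-fold) being the most abundant, and 2 were higher, among them Acot3 (1.87-fold). Of 5 clock genes known to peak as the light phase begins, Arntl (2.34-fold), Nfil3 (1.68-fold) and the low Npas2 had higher levels in KO, and none was lower by more than 1.5-fold. Of 10 clock genes high later in the day, 8 were lower and none higher. Those with a mean FPKM of 1 or more were Gm129 (15.6-fold), Per3 (8.18-fold), Dbp (6.99-fold), Tef (2.60-fold), Per1 (2.46-fold), Nr1d2 (2.17-fold) and Per2 (2.01-fold). Nr1d1, a repressor of the clock, was one of the 2 within 1.5-fold, with 21.4 and 30.9, and it passed 1.5-fold after centring. The part of clock phase in the Elovl3 value was not tested.

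Most markers of macrophages, endothelial cells, cholangiocytes and neutrophils that passed the level were lower in KO by more than 1.5-fold, unlike those of stellate cells. Of all 15727 genes that passed it, 74.8% were lower in KO by any amount, so direction alone does not set a marker apart. Hepatocyte markers were abundant in both libraries, with a summed FPKM of 10310 in WT against 11041 in KO, and 2 of 7 were lower and 2 higher by more than 1.5-fold. Markers of macrophages were lower in 6 of 7 genes (summed FPKM of 58.0 in WT against 33.4 in KO) and those of endothelial cells in 5 of 6 (48.5 and 34.6). For stellate cells 2 of 6 were lower (94.5 and 64.5), beside 26.0% of all genes. For cholangiocytes 3 of 5 were lower (29.8 and 25.7) and for neutrophils 4 of 4 (15.4 and 8.12). Of the lymphocyte markers only Cd79a passed the level, with an FPKM of 0.138 in WT against 0.0765 in KO. Its ratio of 0.556 had a 95% interval from 0.171 to 1.74, so a difference was not detectable at this depth. The sums take in all listed markers, also those below the level, and for lymphocytes they were 0.453 and 0.254. After centring the counts of lower markers were 5 for macrophages, 3 for endothelial cells, 1 for stellate cells, 2 for cholangiocytes, 3 for neutrophils and 1 for lymphocytes. The share of all genes past 1.5-fold was not counted after centring. No marker of these 6 cell types that passed the level was higher by more than 1.5-fold. Of the adipocyte markers only Fabp4 passed the level, with an FPKM of 18.1 in WT against 17.4 in KO, while Lep was listed at 0 in both libraries and Adipoq, Plin1 and Retn in KO. Ly6g, a defining neutrophil marker, was also listed at 0 in both. All 7 genes of proliferation were lower in KO, with a summed FPKM of 183 in WT against 18.2 in KO. The part of these cells and of proliferation in the values of the members was not tested, and in bulk liver fewer cells of a type and less RNA per cell cannot be told apart.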

How the data were processed

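Hepatic RNA of WT and KO mice was sequenced, 1 library each. Per the labels and methods, the authors aligned the reads with TopHat (2.0.0) to mm9 (NCBI37), assembled transcripts with Cufflinks (1.3.0) and estimated FPKM per locus with Cuffdiff. The deposited table also holds the authors' fold changes, statistics, p and q columns, which were not used. The labels' design text names paired end reads and the methods single end reads, and whether quartile normalization was applied is not given in the sources used here.

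Rows naming a symbol were summed, joint loci counted for each symbol they name, and 21 loci that Cuffdiff marked HIDATA were left out. Loci of any other status were kept, among them Per1 and Hnf4a, marked FAIL, and Elovl7, marked NOTEST. Log2 ratios used a pseudocount of 0.1 FPKM, which understates changes of low genes. Fragments were estimated from the spacing of low values in 280 (WT) and 273 (KO) single-exon genes of at least 1000 nt, and scaled by the length of the longest annotated transcript. An FPKM of 1 on 1 kb rested on about 52.4 fragments in WT and 54.98 in KO. Fragments without molecular identifiers are not independent molecules, so the 95% intervals cover counting error only. The estimate of fragments and the counting interval were tested on simulated Poisson counts, which follow the model that the interval assumes. No other step was tested in this way. No test between genotypes was run.

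The members and lists were chosen with earlier results of these data known. Named were all members, the targeted gene, and of each list the most abundant 2 genes and those past 1.5-fold whose mean FPKM was 1 or more. Markers and proliferation genes named by that rule are given as sums and counts. 1 gene that the rule names is not reported here. Other genes (those sharing a locus or sequence with a member, its neighbours, and other list genes) were named after their values were seen. Lists covered other desaturases and elongases, electron donors, elongation partners, regulators, phospholipid incorporation, the peroxisomal step, ceramide synthases, sex-biased genes, clock genes, proliferation and cell markers. Alternatives covered the fold, pseudocount, low-value filter, scaling and row handling. Protein sequences were not used here. Scripts ran under Python 3.11.15 (pandas 2.3.3, scipy 1.17.1, numpy 2.4.6), and figures were drawn in matplotlib 3.10.9.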

Additional observations from a re-analysis of the deposited data

How the results depend on the processing

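No paired analysis was possible because each genotype has a single library, and for the same reason no library could be left out. With a 2-fold line, a filter at a mean FPKM of 1, equal sums of FPKM and each way of handling rows, 4 or 5 members were lower and 1 was higher in KO, as against 5 and 1. After centring on the median of genes, which adds 0.24 to each log2 KO/WT, and with equal upper quartiles, which adds 0.20, 4 were lower and 2 higher, since Elovl1 came within 1.5-fold and the low Elovl7 passed it. The share of all genes past 1.5-fold was not counted under these scalings. Without Elovl1, Elovl3 and Scd2, an alternative chosen after seeing the data because these share a locus span or sequence with another gene, 3 of 6 members were lower and 0 higher. The median log2 KO/WT of the members stayed below 0 throughout, from -0.87 to -0.49. Under centring and equal upper quartiles the median turned above 0 for elongation partners (0.0619 and 0.0272), regulators (0.137 and 0.1025), ceramide synthases (0.0836 and 0.0515), male-biased genes (0.0357 and 0.00104) and adipocyte markers (0.178 and 0.1435), and without a filter it did so for female-biased genes (0.4725). Equal upper quartiles gave the list counts stated after centring, except 3 in place of 2 lower for phospholipid incorporation, 4 in place of 3 lower for neutrophils, and 3 in place of 4 higher for clock genes that peak as the light phase begins. The low-value filter also changed list counts. At a mean FPKM of 1, among others, 1 in place of 3 cholangiocyte markers was lower, and 1 in place of 3 female-biased genes. For lymphocyte markers and elongation partners 0 in place of 1 were lower. Without a filter 5 in place of 2 female-biased genes were higher. Depth limits Elovl7 most, and the estimate of KO fragments per FPKM on 1 kb was 53.2 by the ratio of low genes in place of 54.98.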
